A study of Mus musculus with 57 samples.

Results

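The 10 genes described here are Pla2g4a, Ptgs1, Ptgs2, Ptges, Hpgds, Tbxas1, Ptger4, Alox5, Alox5ap and Ltc4s, which make prostaglandins, thromboxane and leukotrienes or, for Ptger4, receive a prostaglandin signal. They were listed by symbol, and all 10 were found in both deposited count tables and passed the filter on low counts in both, which 31709 of 50565 genes of the sex table and 15857 of 53278 of the LPS table did. RNA came from CD11b-positive cells of mouse brain, labelled microglia, of wild-type (WT) mice and of littermates deficient in P2RY12 (KO), a nucleotide receptor abundant on resting microglia. In the sex experiment there were 4 WT and 5 KO adult males and 4 WT and 5 KO adult females, with no treatment tag, although the LPS injection stands in the protocol of every library. The LPS experiment held 8 libraries of WT ns, 9 of WT LPS, 8 of KO ns and 8 of KO LPS. Lipopolysaccharide (LPS), an endotoxin of Gram-negative bacteria, was injected intraperitoneally (1 mg/kg). What ns stands for is not stated in the labels, which give no time after the injection, and no sex for the LPS experiment. Strain, exact age and the design of the knockout allele are not given for either experiment. All cells were selected on CD11b, which other myeloid cells carry too.

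Arachidonic acid is freed from membrane phospholipids and then follows one of several routes. Cyclooxygenases turn it into prostaglandin H2, from which separate terminal synthases make prostaglandin E2, prostaglandin D2 or thromboxane. In the other route 5-lipoxygenase, helped by a membrane protein that presents the substrate, makes leukotriene A4, which leukotriene C4 synthase joins to glutathione. Microglia and other macrophages can make prostaglandin D2, thromboxane and leukotrienes, and prostaglandin E2 made during inflammation acts in the brain on fever, pain and the state of microglia.

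Levels are given in CPM, a gene's count divided by its library's total in M (1e+06 counts) after TMM scaling, and compare samples of 1 table only. A gene is called changed where edgeR's quasi-likelihood test gave a Benjamini-Hochberg adjusted p under 0.05 over all genes tested, and log2 fold changes carry their standard error (SE). The totals ran from 58.5 to 318.5 M counts in the sex experiment and from 15.9 to 168.4 M in the LPS experiment. P2ry12 itself was at 3007 to 5928 CPM in the 8 WT animals of the sex experiment and at 309 to 526 CPM in the 10 KO animals. Saa3, an acute-phase gene that LPS induces, was at 0.361 CPM or less in all 18. In the LPS experiment 4 WT libraries, those of library number 2, went against their treatment label and are shown apart. Library numbers and the 2 library sets were read from the library names, which do not say what they stand for. Saa3 was at 1781 and 2491 CPM in WT ns 1 and WT ns 5, named here by their labels, against 1.52 to 64.3 in the other 6 WT ns libraries. Of those 6, only WT ns 8, at 64.3 CPM, was above 4.17 CPM. Saa3 was at 1.59 and 3.21 CPM in WT LPS 1 and WT LPS 6, against 1418 to 9720 in the other 6 WT LPS samples. P2ry12 was at 4461 and 12154 CPM in WT LPS 1 and WT LPS 6 and at 481 and 927 CPM in WT ns 1 and WT ns 5. WT LPS 8 and WT LPS 9 differed by far less than any other pair and were summed to 1 sample, so that n = 8 for each KO group and n = 6 for each WT group. The value with all WT libraries kept under their labels (n = 8 and 8) is printed beside each WT result of a member as the value "as labelled". Microglia markers were abundant throughout: the sum over the 10 listed was 16809 to 54146 CPM in the LPS experiment, and over the 9 in the table of the sex experiment it was 22817 to 37273 CPM, and none of them was at 0 throughout a group. In 6 libraries of the second library set (WT LPS 6, WT LPS 7, WT ns 5, KO ns 5, KO ns 6 and KO LPS 5) the sum of 6 long mRNAs (Lrp1, Srrm2, Prrc2a, Kmt2d, Kmt2b and Ubr4, chosen after their values were seen) was 124 to 834 CPM, against 4045 to 7739 CPM in the other 26 samples.

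The bases before the start site of 6 members are printed below because their transcripts moved apart under LPS while serving the same pathway. With the WT libraries of number 2 apart, Ptges and Ptger4 rose in both genotypes, and Alox5 was called higher in KO only. Ltc4s and Hpgds fell in both genotypes, and Ptgs2 was not called in either. Each run holds 250 bases 5′ to 3′ on the gene's strand and ends at the base before the RefSeq start on GRCm38.p6. The table of promoters held 9 of the 10 members, with no entry for Alox5ap. Capitals mark GC boxes (GGGCGG) and GAGGAA, a sequence that the ETS factor PU.1 binds, read on both strands. The shorter core GGAA that ETS factors share was not searched.
Ptges, chr2:30903298-30903547, minus strand: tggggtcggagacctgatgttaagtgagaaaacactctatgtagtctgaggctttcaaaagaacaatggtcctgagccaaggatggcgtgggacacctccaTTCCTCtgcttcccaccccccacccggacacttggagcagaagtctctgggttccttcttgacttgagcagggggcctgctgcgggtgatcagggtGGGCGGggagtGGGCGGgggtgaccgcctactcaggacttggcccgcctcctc
Ptger4, chr15:5244188-5244437, minus strand: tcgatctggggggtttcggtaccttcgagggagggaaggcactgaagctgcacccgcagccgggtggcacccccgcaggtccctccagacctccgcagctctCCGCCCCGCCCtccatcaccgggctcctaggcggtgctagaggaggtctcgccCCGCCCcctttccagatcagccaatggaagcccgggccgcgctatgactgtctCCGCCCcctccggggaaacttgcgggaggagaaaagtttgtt
Alox5, chr6:116461179-116461428, minus strand: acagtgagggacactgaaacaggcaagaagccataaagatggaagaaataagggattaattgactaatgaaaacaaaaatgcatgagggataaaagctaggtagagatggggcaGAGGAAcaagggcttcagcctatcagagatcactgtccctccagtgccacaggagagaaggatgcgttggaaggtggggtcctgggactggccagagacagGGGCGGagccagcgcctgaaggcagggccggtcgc
Ltc4s, chr11:50238533-50238782, minus strand: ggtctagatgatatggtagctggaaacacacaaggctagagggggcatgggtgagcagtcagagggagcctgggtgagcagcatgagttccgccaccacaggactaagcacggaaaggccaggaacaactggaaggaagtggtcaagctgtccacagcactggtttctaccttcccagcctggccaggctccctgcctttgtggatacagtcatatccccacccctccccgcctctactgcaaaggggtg
Hpgds, chr6:65144731-65144980, minus strand: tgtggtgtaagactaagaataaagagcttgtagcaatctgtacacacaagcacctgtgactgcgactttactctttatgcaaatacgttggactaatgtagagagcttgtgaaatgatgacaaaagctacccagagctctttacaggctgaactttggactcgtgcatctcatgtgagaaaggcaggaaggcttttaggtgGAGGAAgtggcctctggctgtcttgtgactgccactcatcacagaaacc
Ptgs2, chr1:150099781-150100030, plus strand: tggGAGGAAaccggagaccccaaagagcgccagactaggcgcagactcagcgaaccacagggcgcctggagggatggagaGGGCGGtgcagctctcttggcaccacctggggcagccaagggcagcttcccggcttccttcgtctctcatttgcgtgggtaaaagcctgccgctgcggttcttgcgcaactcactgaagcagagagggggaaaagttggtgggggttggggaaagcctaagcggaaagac

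A GC box was found before 4 of the 9 members with an entry (Ptges, Ptger4, Alox5 and Ptgs2) and in 32.7% of all 32851 promoters of that length. The GAGGAA sequence was found before 6 of the 9 and in 23.3% of all promoters. The letters of a TATA box (TATAAA) were found before 2 of the 9 (Pla2g4a and Tbxas1, which are not printed) and in 12.4% of all. Pla2g4a has 2 entries, and its match is in 1 of them, 200 bases before the start on the opposite strand. A member was counted if any of its entries matched, while the shares of all promoters are per entry. The kappaB consensus, read on both strands, was found before 0 of the 9 and in 7.25% of all. The AP-1 site TGANTCA was found before 1 of the 9, Tbxas1, and in 6.75% of all. The Ptger4 run has 4 GC boxes, all on the opposite strand, and 2 of them overlap. The Ltc4s run has no match to any of these motifs, though it holds the shorter GGAA. These matches describe letters in a short window and show no binding.

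After LPS some members rose and others fell. In KO, 6 of 10 members were called, Ptges, Ptger4 and Alox5 higher and Ltc4s, Hpgds and Tbxas1 lower, in a comparison that called 28.3% of all genes tested (13.1% higher and 15.2% lower). In WT with number 2 apart, 5 of 10 were called, Ptges and Ptger4 higher and Ltc4s, Hpgds and Tbxas1 lower, in a comparison that called 30.3% of all genes (14.8% higher and 15.5% lower). As labelled, 0 of 10 were called in WT, in a comparison that called 0% of all genes, where edgeR's test gave 3605 genes an unadjusted p under 0.05. In KO the fit as labelled called the same 6 genes, in a comparison that called 22.3%. CPM ranges of LPS and ns did not meet for 2 of 10 members in KO, Ptger4 and Ltc4s, and for 7.71% of all genes tested. In WT they did not meet for 4 of 10, which were Ptger4, Ltc4s, Hpgds and Tbxas1, and for 25.1% of all genes. The median log2 fold change of the 10 members was 0.27 in KO, where that of all genes was -0.02, and 0.38 in WT, where it was -0.01. In bulk RNA, fewer cells of a type and less RNA per cell cannot be told apart.

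**Figure D1:**
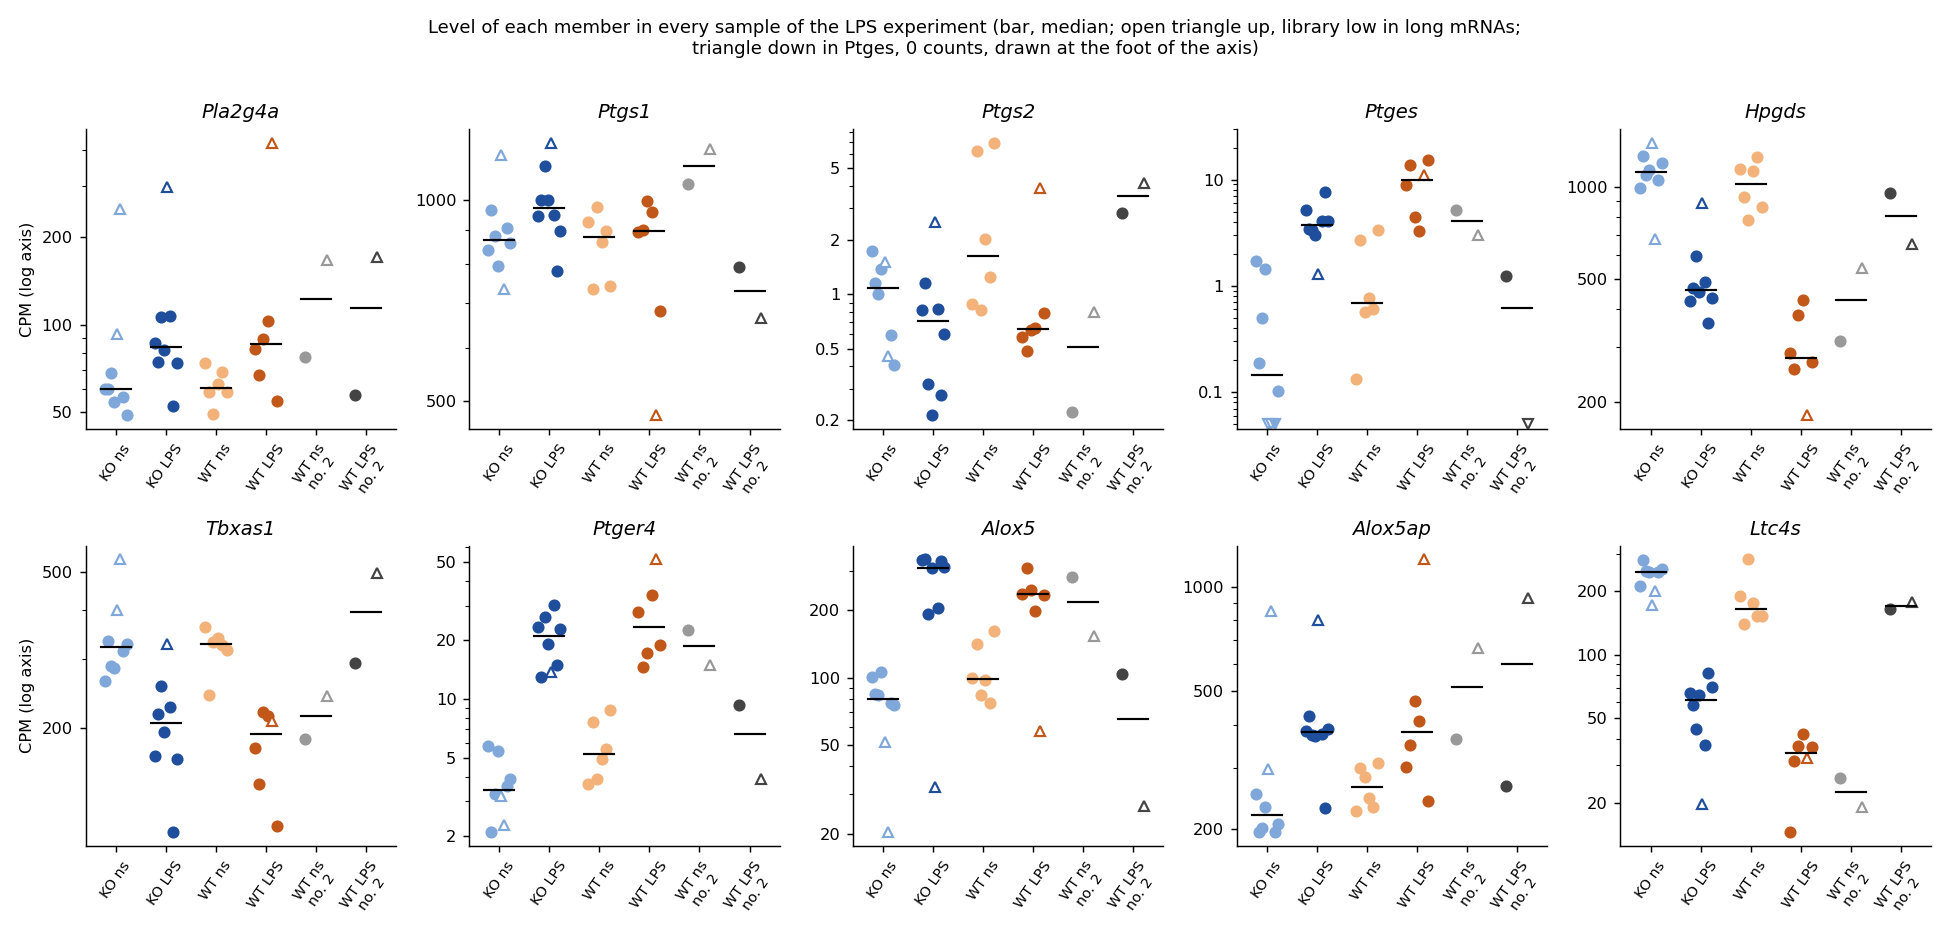
Level of the 10 members in CPM on a log axis (vertical) in each sample of the LPS experiment by group (horizontal), with 1 point per sample, a bar at the median, open upward triangles for the 6 libraries low in long mRNAs and downward triangles for 0 counts. Ptger4 is higher and Ltc4s lower in all 8 KO LPS libraries than in all 8 KO ns libraries, and the WT libraries of number 2 lie nearer the other treatment for both genes.

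Pla2g4a encodes the cytosolic phospholipase A2 that frees arachidonic acid. It was at 48.7 to 249.7 CPM (median 60.0) in KO ns and at 52.3 to 299 (median 83.9) in KO LPS. The groups overlapped, and the difference of 0.39 ± 0.36 was not called (adjusted p = 0.478). The WT values were 49.2 to 73.7 CPM (median 60.4) in ns and at 54.4 to 424 (median 86.0) in LPS, with a difference of 0.98 ± 0.42 (adjusted p = 0.0793; as labelled 0.65 ± 0.37, adjusted p = 0.285). The highest values were in libraries low in long mRNAs: WT LPS 7 at 424, KO LPS 5 at 299 and KO ns 6 at 249.7 CPM. Without the 6 libraries low in long mRNAs, an alternative chosen after seeing the data, Pla2g4a was called in both genotypes, at 0.56 ± 0.15 in KO (adjusted p = 0.00289) and at 0.39 ± 0.16 in WT (adjusted p = 0.0479). The part of RNA quality in its level was not tested.

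Ptgs1 encodes the cyclooxygenase that many cells carry at rest. It was at 735 to 1167 CPM (median 872) in KO ns and 781 to 1217 (median 973) in KO LPS, and at 736 to 975 (median 880.2) in WT ns and 476 to 996 (median 898) in WT LPS. All 4 groups overlapped. The LPS difference was 0.14 ± 0.14 in KO (adjusted p = 0.494) and -0.07 ± 0.16 in WT (adjusted p = 0.767; as labelled -0.22 ± 0.15, adjusted p = 0.363). Its highest library was KO LPS 5 and its lowest WT LPS 7, both low in long mRNAs.

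Ptgs2 encodes the cyclooxygenase that macrophages can induce within hours of an inflammatory signal. It was low in every library of the LPS experiment, with no library above 6.95 CPM. It was at 0.407 to 1.74 CPM (median 1.08) in KO ns and at 0.213 to 2.52 (median 0.709) in KO LPS, a difference of -0.40 ± 0.54 (adjusted p = 0.648). WT libraries were at 0.821 to 6.95 CPM (median 1.64) in ns and at 0.483 to 3.87 (median 0.642) in LPS, a difference of -1.49 ± 0.62 (adjusted p = 0.0695; as labelled -0.50 ± 0.60, adjusted p = 0.634). The 2 highest libraries were WT ns 8 at 6.95 and WT ns 3 at 6.22 CPM. Their sums over 10 neutrophil markers, 16362 and 17641 CPM, were the highest of the experiment, in which the other libraries ran from 297 to 13509. Without these 2 libraries, an alternative chosen after seeing the data, the WT difference was -0.18 ± 0.60 (adjusted p = 0.867). Without the 6 libraries low in long mRNAs, of which WT LPS 7 had 3.87 CPM, it was -2.20 ± 0.57 (adjusted p = 0.00239). Leaving out WT LPS 7 alone gave -2.19 (adjusted p = 0.0105). The part of neutrophil RNA and of RNA quality in these values was not tested.

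Ptges encodes the inducible microsomal synthase that makes prostaglandin E2. It was at 0 to 1.70 CPM (median 0.144) in KO ns and at 1.28 to 7.60 (median 3.74) in KO LPS. KO ns 5, 6 and 7 had 0 counts, which allow up to 0.101, 0.228 and 0.112 CPM. The groups touched in 1 library, KO LPS 5 at 1.28 CPM, which lay under KO ns 1 at 1.70 and KO ns 4 at 1.45. Ptges rose by 3.22 ± 0.76 on the log2 scale in KO (adjusted p = 0.00164). Among WT libraries it was at 0.132 to 3.34 CPM (median 0.686) in ns and at 3.26 to 15.2 (median 9.96) in LPS, and it rose by 2.77 ± 0.81 (adjusted p = 0.00955; as labelled 1.86 ± 0.78, adjusted p = 0.171). The number 2 libraries labelled WT ns were at 5.12 and 2.99 CPM, and those labelled WT LPS at 1.25 CPM and at 0 counts, which allows up to 0.235 CPM. Within the first library set the difference in KO was 1.95 ± 0.75 (adjusted p = 0.0517) and in WT 3.06 ± 0.88 (adjusted p = 0.0149). Within the second set it was 2.69 ± 0.91 in WT (adjusted p = 0.129) and was called in KO (adjusted p = 0.0029), where 3 of the 4 KO ns libraries had 0 counts and the fitted size depends on the prior count. WT ns 3 and WT ns 8, with the highest neutrophil marker sums, were also the highest for Ptges of the 6 WT ns libraries with number 2 apart, at 2.72 and 3.34 CPM. Without them the WT difference was 4.15 ± 0.97 (adjusted p = 0.00232).

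Hpgds encodes the hematopoietic synthase that makes prostaglandin D2. It was at 678 to 1396 CPM (median 1116) in KO ns and at 360 to 889 (median 462) in KO LPS. It fell by 1.10 ± 0.20 on the log2 scale in KO (adjusted p = 7.19e-05), with an overlap that came from KO LPS 5 at 889 and KO ns 6 at 678 CPM, both low in long mRNAs. In WT it was at 779 to 1255 CPM (median 1026) in ns and at 180.3 to 427 (median 278) in LPS, so that the groups did not overlap. It fell by 1.76 ± 0.23 in WT (adjusted p = 9.93e-07; as labelled -1.03 ± 0.29, adjusted p = 0.102). The number 2 libraries were at 314 and 543 CPM under the label ns and at 954 and 653 CPM under the label LPS. Within the second library set the fall was -0.91 ± 0.40 in KO (adjusted p = 0.255) and -1.84 ± 0.48 in WT (adjusted p = 0.0508), and within the first set it was called in both genotypes.

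Tbxas1 encodes thromboxane A synthase. It was at 264 to 537 CPM (median 321) in KO ns and at 109 to 327 (median 206) in KO LPS, overlapping groups, and fell by 0.70 ± 0.19 on the log2 scale (adjusted p = 0.00442). The WT libraries were at 243 to 362 CPM (median 328) in ns and at 113 to 219.8 (median 194) in LPS, with no overlap. It fell by 0.83 ± 0.21 in WT (adjusted p = 0.00397; as labelled -0.34 ± 0.23, adjusted p = 0.379). The first library set alone called Tbxas1 in KO and called most members in WT. In the second library set alone Tbxas1 was not called in KO (-0.82 ± 0.35, adjusted p = 0.232) or in WT (-0.86 ± 0.40, adjusted p = 0.25).

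Ptger4 encodes the EP4 receptor, which raises cyclic AMP when prostaglandin E2 binds. It was at 2.09 to 5.75 CPM in KO ns and at 12.9 to 30.3 in KO LPS. In WT it was at 3.69 to 8.84 CPM (median 5.26) in ns and at 14.6 to 51.8 (median 23.4) in LPS. The LPS libraries lay above the ns libraries without overlap in both genotypes. Ptger4 rose by 2.46 ± 0.29 on the log2 scale in KO (adjusted p = 1.40e-07) and by 2.25 ± 0.33 in WT (adjusted p = 5.80e-06; as labelled 1.30 ± 0.40, adjusted p = 0.116). The number 2 libraries were at 22.5 and 15.0 CPM under the label ns and at 9.29 and 3.91 CPM under the label LPS. Ptger4 was called within each library set in both genotypes, between 2.02 ± 0.42 (WT, first set, adjusted p = 0.00205) and 2.73 ± 0.38 (KO, second set, adjusted p = 0.0014).

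Alox5 encodes 5-lipoxygenase, the first enzyme of leukotriene synthesis. It was at 20.3 to 106 CPM (median 80.2) in KO ns and at 32.3 to 339 (median 311) in KO LPS. KO LPS 5, low in long mRNAs, was at 32.3 CPM, and the other 7 KO LPS libraries were at 192 or more, above all KO ns libraries. Alox5 rose by 1.82 ± 0.35 on the log2 scale in KO (adjusted p = 0.000188). WT levels were 77.3 to 162 CPM (median 98.7) in ns and at 57.4 to 311 (median 236) in LPS, a difference of 0.88 ± 0.39 that was not called (adjusted p = 0.0901; as labelled 0.32 ± 0.39, adjusted p = 0.642). WT LPS 7, also low in long mRNAs, was the only WT LPS sample under 198 CPM, at 57.4. The WT call depended on the libraries: it was made without WT LPS 7, WT ns 8, KO ns 6 or KO LPS 5, at 1.10, 1.12, 0.92 and 0.89. Without the 6 libraries low in long mRNAs, Alox5 was called in both genotypes, at 1.78 ± 0.17 in KO (adjusted p = 1.61e-08) and 1.17 ± 0.18 in WT (adjusted p = 1.11e-05). The first library set alone called Alox5 in KO and called most members in WT. Within the second library set Alox5 was not called in KO (2.04 ± 0.67, adjusted p = 0.114) or in WT (0.63 ± 0.75, adjusted p = 0.708). The part of RNA quality in these values was not tested.

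Alox5ap encodes the membrane protein that presents arachidonic acid to 5-lipoxygenase. It was at 196 to 851 CPM (median 219) in KO ns and at 229.7 to 800.3 (median 380.3) in KO LPS, a difference of 0.52 ± 0.31 (adjusted p = 0.232). In WT it was at 225 to 310.1 CPM (median 264) in ns and at 241 to 1200 (median 379.6) in LPS, a difference of 0.82 ± 0.36 (adjusted p = 0.081; as labelled 0.60 ± 0.32, adjusted p = 0.256). The highest libraries of KO ns, KO LPS and WT LPS were the ones low in long mRNAs, KO ns 6 at 851, KO LPS 5 at 800.3 and WT LPS 7 at 1200 CPM. Without KO ns 6 alone the KO difference was 0.92 (adjusted p = 0.0191). The WT difference was called without KO ns 6, at 0.90, or without WT LPS 8, at 0.98. Without the 6 libraries Alox5ap was called in KO at 0.81 ± 0.13 (adjusted p = 1.65e-05) and in WT at 0.43 ± 0.14 (adjusted p = 0.0134).

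Ltc4s encodes leukotriene C4 synthase. It was at 172 to 281 CPM (median 246) in KO ns and at 19.8 to 82.2 (median 61.1) in KO LPS. In WT it was at 140.5 to 283 CPM (median 164) in ns and at 14.5 to 42.4 (median 34.5) in LPS. The groups did not overlap in either genotype, and Ltc4s fell by 2.07 ± 0.23 on the log2 scale in KO (adjusted p = 4.85e-08), and in WT it fell by 2.48 ± 0.27 (adjusted p = 5.06e-08; as labelled -1.07 ± 0.46, adjusted p = 0.177). The number 2 libraries were at 26.1 and 19.0 CPM under the label ns and at 164 and 178 CPM under the label LPS. Within the first library set the difference was -2.06 ± 0.29 in KO (adjusted p = 0.000112) and -2.87 ± 0.34 in WT (adjusted p = 4.64e-05). Within the second it was -1.98 ± 0.38 in KO (adjusted p = 0.00968) and -2.06 ± 0.44 in WT (adjusted p = 0.0215).

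**Figure D2:**
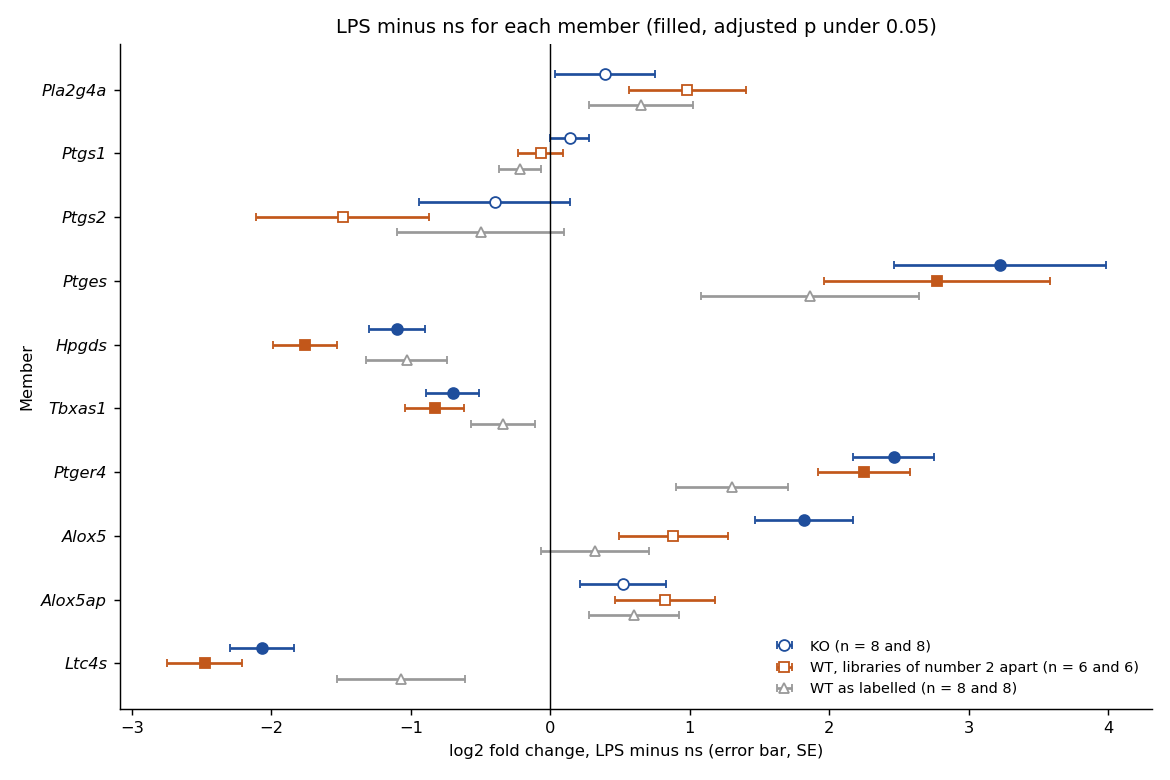
Log2 fold change of LPS minus ns with its SE (horizontal) for the 10 members (vertical) in KO, in WT with number 2 apart and in WT as labelled, filled where the adjusted p is under 0.05. Ltc4s and Ptger4 have the tightest large changes, -2.07 and 2.46 in KO, and none of the 10 values as labelled in WT is filled.

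Without the 6 libraries low in long mRNAs, 8 of 10 members were called in KO and 9 of 10 in WT, in comparisons that called 55% and 54.6% of all genes, so that the members' share rose with that of all genes. Ptgs1 was the one member called in neither genotype there. Marker lists moved with the treatment as well. Of the 10 microglia markers 7 were called lower in KO and 7 in WT, and 0 higher. Their median log2 fold change was -0.80 in KO and -1.27 in WT, and their sum ran from 21463 to 27566 CPM in KO LPS against 34209 to 54146 in KO ns. Of the 10 neutrophil markers 0 were called in KO and 2 in WT, both lower. The median log2 fold change of the 10 was -0.42 in KO and -0.84 in WT, and their sum ran from 1015 to 4456 CPM in KO LPS and from 297 to 10172 in KO ns. Mast cells also express Hpgds and Ltc4s. Of 7 mast cell markers 4 were tested in the LPS experiment, of which 3 were called lower in KO and 2 in WT, and the sum of the 7 was 12.0 to 35.7 CPM in KO LPS, 7.8 to 59.7 in KO ns, 20.9 to 48.0 in WT LPS and 10.1 to 109 in WT ns. Platelets carry Ptgs1 and Tbxas1. Of 5 platelet markers 3 were tested, of which 1 was called lower in KO and 2 in WT, and the sum of the 5 was 4.99 to 15.7 CPM in KO LPS against 19.9 to 42.3 in KO ns, and 9.15 to 13.6 in WT LPS against 27.5 to 35.7 in WT ns. Of 8 markers of border-associated macrophages 3 were called lower in KO and 2 in WT, and their sum was 155 to 508 CPM in KO LPS, 246 to 736 in KO ns, 177 to 571 in WT LPS and 329 to 976 in WT ns. Of 4 B cell markers 2 were called lower in KO and 3 in WT, with sums of 15.1 to 50.2 CPM over the 4 groups. Of 6 T and NK cell markers 4 were tested, with 2 called lower in KO and 0 in WT, and sums of 2.45 to 200.2 CPM. Of 7 monocyte markers 1 was called higher and 1 lower in each genotype, with sums of 67.1 to 2499 CPM. The part of these cell types in the members' changes was not tested.

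The comparison of KO with WT asks whether loss of P2RY12 alters these genes at rest or after LPS. No member was called between KO and WT at ns (0 of 10, in a comparison that called 0.0883% of all genes), at LPS (0 of 10, 0.0946%) or in the genotype-by-LPS interaction (0 of 10, 0%). As labelled, these comparisons called 0 of 10 members as well, beside 0.114%, 0.126% and 0% of all genes. With number 2 apart, edgeR's test gave unadjusted p-values under 0.05 for 1415, 957 and 756 genes in that order, and DESeq2 called 46, 50 and 3 genes. All 10 members had overlapping CPM ranges between KO and WT, both at ns and at LPS, where the ranges were apart for 0.839% and 0.259% of all genes tested. The largest differences at ns were those of Ptges, at -1.69 ± 0.79 (adjusted p = 0.55; as labelled -2.21 ± 0.85, adjusted p = 0.474), and Ptgs2, at -1.45 ± 0.57 (adjusted p = 0.472; as labelled -1.13 ± 0.61, adjusted p = 0.61). Among the 6 WT ns libraries with number 2 apart, both genes were highest in WT ns 3 and WT ns 8, the libraries with the most neutrophil marker RNA. These libraries differed in Saa3, at 1.60 CPM in WT ns 3 and 64.3 CPM in WT ns 8. The part of neutrophil RNA or of an inflammatory state in these differences was not tested. At LPS the largest difference was that of Ptges, at -1.24 ± 0.70 with number 2 apart (adjusted p = 0.882). The members with the lowest p in edgeR's test there were Hpgds and Ltc4s. Hpgds was 0.78 ± 0.21 higher in KO (adjusted p = 0.258; as labelled 0.27 ± 0.29, adjusted p = 0.911) and Ltc4s 0.76 ± 0.24 (adjusted p = 0.468; as labelled -0.29 ± 0.46, adjusted p = 0.966). DESeq2 called Hpgds in this comparison, with a difference of 0.78 ± 0.21 (adjusted p = 0.0493), and no other member. The median of Hpgds was 462 CPM in KO LPS and 278 CPM in WT LPS, and that of Ltc4s was 61.1 and 34.5 CPM. The interaction of Hpgds, the KO change minus the WT change, was 0.66 ± 0.30 (adjusted p = 0.754; as labelled -0.07 ± 0.41, adjusted p = 0.952), and that of Alox5 was 0.93 ± 0.52 (adjusted p = 0.754; as labelled 1.50 ± 0.55, adjusted p = 0.416). Alox5 was called after LPS in KO and not in WT, and the test of that difference did not pass.

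In the sex experiment, 0 of 10 members were called between KO and WT in males (0.00946% of all genes called), in females (0.164%) or averaged over the sexes (0.432%), in the sex-by-genotype interaction (0%), or between female and male WT (0.0725%). The unadjusted p was under 0.05 in edgeR's test for 2171, 1655, 2860, 879 and 2379 genes in that order. Hpgds was at 742, 753, 923 and 940.3 CPM in male WT and at 949, 952, 1015, 1025 and 1030 CPM in male KO, so that every male KO animal lay above every male WT animal, as for 0.997% of all genes tested. The difference was 0.24 ± 0.12 (adjusted p = 0.719). In females it was at 567, 803, 851 and 979 CPM in WT and at 721 to 892 CPM in the 5 KO animals, a difference of 0.01 ± 0.12 (adjusted p = 1), and the interaction was -0.24 ± 0.17 (adjusted p = 0.999). Ptgs1, Tbxas1 and Pla2g4a differed by at most 0.15 on the log2 scale between the genotypes in either sex, with SEs of 0.09 to 0.11. Ltc4s was 0.08 ± 0.14 higher in male KO (adjusted p = 0.985) and 0.29 ± 0.14 in female KO (adjusted p = 0.925).

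In the other members of the sex experiment 2 WT animals stood apart. Ptgs2 was at 219.6 CPM in male WT 5 and at 13.0, 17.6 and 15.1 CPM in the other males of that genotype. It was at 95.0 CPM in female WT 2 and at 7.15, 16.6 and 10.7 CPM in the other female WT animals. The 10 KO animals were at 9.37 to 33.7 CPM. Ptges was at 5.46 CPM in male WT 5 and 2.92 in female WT 2, and at 0.103 to 0.842 CPM in the other 16 animals. Alox5 was at 219 and 148 CPM in these animals against 44.0 to 80.7 in the others, and Alox5ap at 322 and 263 CPM against 130.2 to 183. Ptger4 was at 14.4 CPM in male WT 5 where the rest of its group had 2.80 to 5.07, and at 12.1 CPM in female WT 2 against 4.74 to 7.46 in the other female WT animals, but 2 female KO animals were higher, at 15.3 and 16.3 CPM. In the same animals the sum of the 10 neutrophil markers was 48695 and 28925 CPM, against 729.9 to 7738 CPM in the other 16, and the microglia marker sum was 22817 and 23343 CPM against 30043 to 37273. The sum of 7 monocyte markers was 3864 and 2225 CPM in them, against 102 to 588 in the others. The sum of the mast cell markers, 7 listed of which 4 passed the filter, was 515 and 343 CPM, against 17.2 to 96.5. Ptgs1 was at 725 and 603 CPM in these animals, the lowest values of the 18 animals, and Ltc4s at 70.2 and 63.2 CPM, also the lowest. The part of RNA of these other cell types in the levels was not tested.

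**Figure D3:**
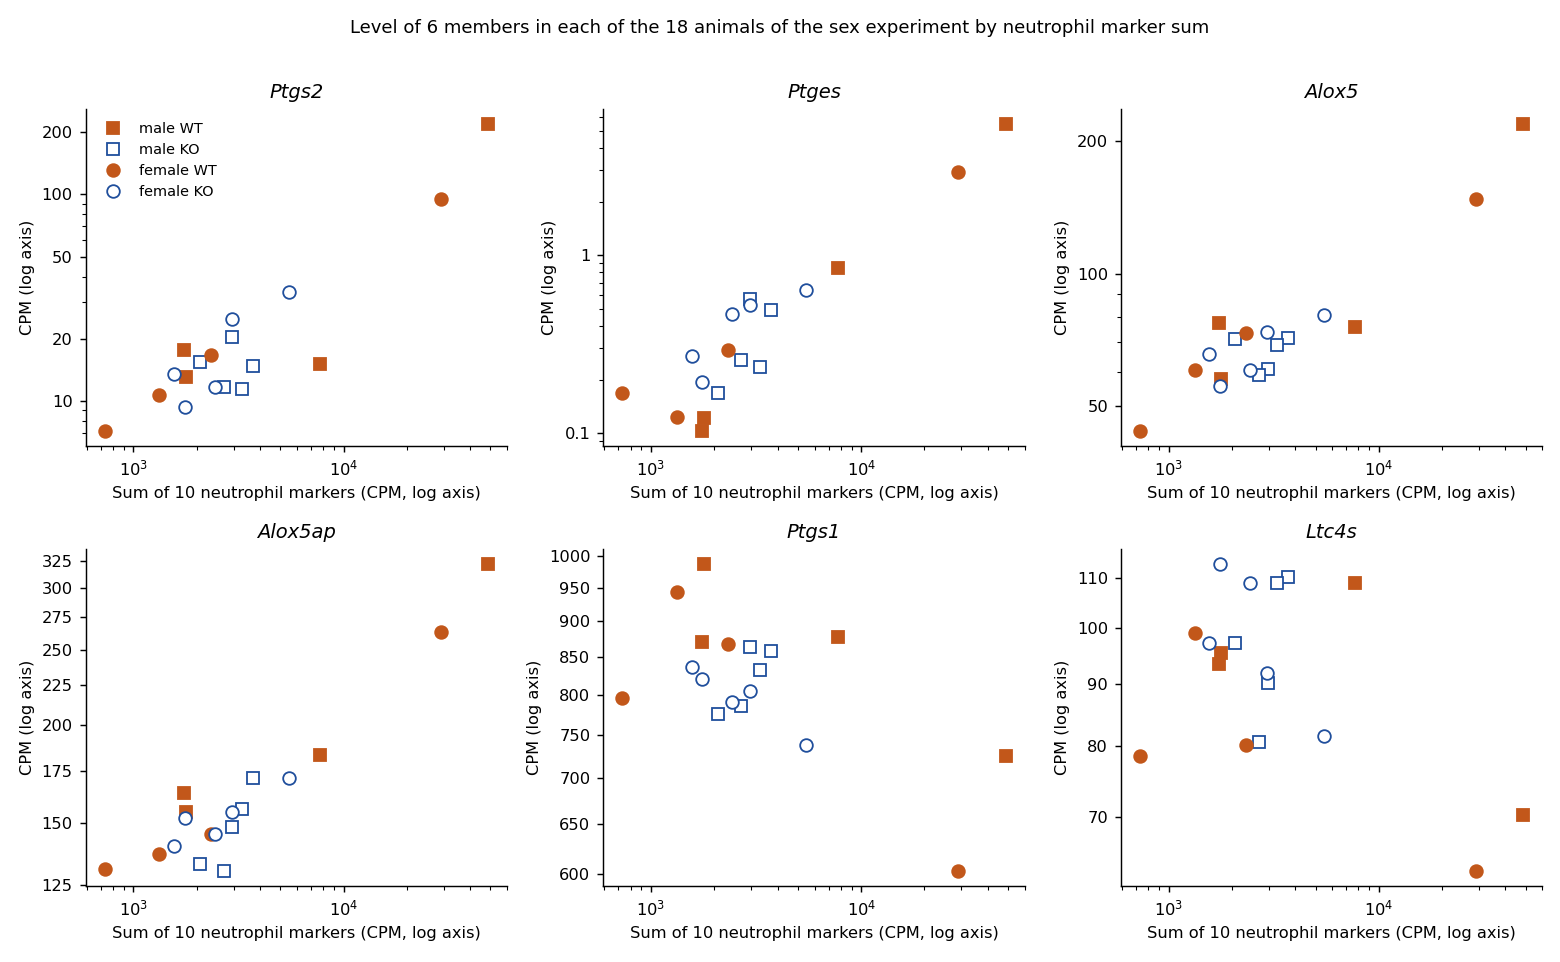
Level of 6 members in CPM (vertical, log axis) against the sum of 10 neutrophil markers in CPM (horizontal, log axis) in each of the 18 animals of the sex experiment, with squares for males, circles for females, filled for WT and open for KO. Male WT 5 and female WT 2, at 48695 and 28925 CPM, stand to the right of the other 16 animals, high for Ptgs2, Ptges, Alox5 and Alox5ap and low for Ptgs1 and Ltc4s.

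The differences between KO and WT in these genes changed when those 2 animals were left out. With all 18 animals, Ptgs2 differed by -2.17 ± 0.92 in male KO (adjusted p = 0.719) and Ptges by -2.26 ± 1.06 (adjusted p = 0.719). Without male WT 5 and female WT 2, an alternative chosen after seeing the data, these values were -0.05 ± 0.41 and -0.13 ± 0.59 (adjusted p = 1 for both). In females, Ptgs2 went from -0.80 ± 0.90 to 0.70 ± 0.42 (adjusted p = 0.796) and Ptges from -1.05 ± 1.07 to 1.11 ± 0.63 (adjusted p = 0.747). Alox5 went from -0.69 ± 0.37 to -0.08 ± 0.16 in males and from -0.28 ± 0.37 to 0.18 ± 0.16 in females. Alox5ap went from -0.48 ± 0.22 to -0.18 ± 0.09 in males and from -0.15 ± 0.22 to 0.15 ± 0.09 in females. No member was called in any of the 5 comparisons without these animals, where 0.0125%, 0.602%, 0.969%, 0% and 0.0564% of all genes were called in the order above.

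**Figure D4:**
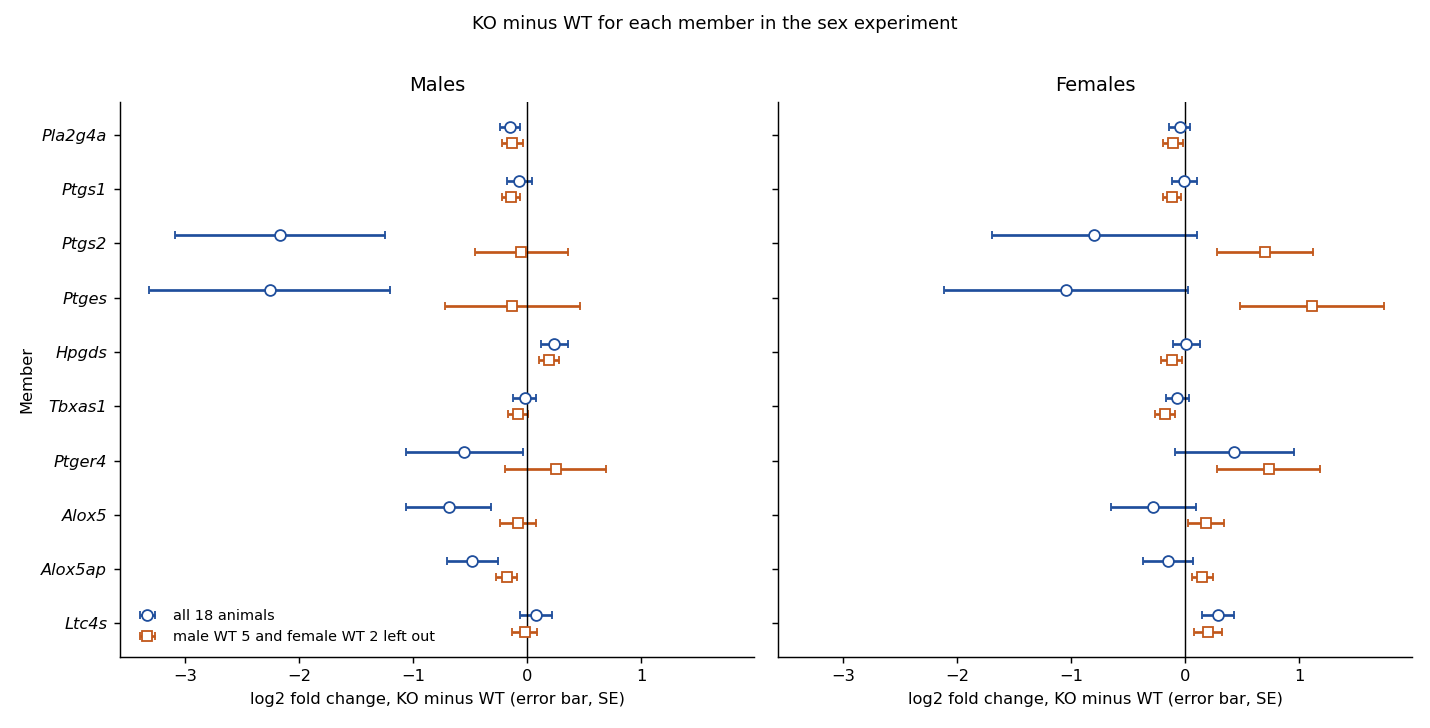
Log2 fold change of KO minus WT with its SE (horizontal) for the 10 members (vertical) in males (left) and females (right), with all 18 animals and with male WT 5 and female WT 2 left out. Ptgs2 moves from -2.17 to -0.05 in males and from -0.80 to 0.70 in females, and no value has an adjusted p under 0.05.

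In the table of the sex experiment the stated length of a gene is its whole span, and spans of some members overlap those of other genes. Whether reads were counted for both was not tested. Ptgs2 (chr1:149975851-149983978, plus strand, GRCm39), Ptgs1 (chr2:36106758-36142287, plus), Ltc4s (chr11:50127288-50129378, minus), Alox5ap (chr5:149201814-149224963, plus), Ptger4 (chr15:5262880-5273668, minus) and Pla2g4a (chr1:149705369-149837041, minus) overlap no other gene of the table. Alox5 (chr6:116387030-116438139, minus) holds Gm38880 on the other strand, whose counts summed over the animals equal 60.4% of those of Alox5. Tbxas1 (chr6:38817897-39061524, plus) overlaps Hipk2 (chr6:38664447-38853236), a kinase gene on the other strand. Counts over all of Hipk2 equal 38.2% of those of Tbxas1, but the span of Hipk2 lies only in part within that of Tbxas1. Tbxas1 also overlaps 6 smaller genes, of which Gm33767 has the most counts, at 5.08%. Hpgds (chr6:65094019-65121960, minus) holds LOC118567430 at 4.95%, and Ptges (chr2:30779483-30793309, minus) touches Gm52550 at 6.85%. The strand setting of the counting is not given in the sources used here, so the counts of Alox5 and Tbxas1 are uncertain to the extent that the counting ignored strand.

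The wider pathway was described by 55 listed genes, of which 42 passed the filter in the LPS experiment. After LPS 12 of the 42 were called in KO, 4 higher and 8 lower, and 18 in WT with number 2 apart, 6 higher and 12 lower (as labelled 0). All genes tested were called at 28.3% and 30.3% in these comparisons, so that the share in KO is close to the background. Their median log2 fold change was -0.19 in KO and -0.38 in WT, beside -0.02 and -0.01 for all genes.

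Downstream of Ltc4s, genes that trim leukotriene C4 moved in both directions. Ggt1, a gamma-glutamyltransferase that cleaves leukotriene C4 to D4, rose by 3.44 ± 0.58 on the log2 scale in KO (adjusted p = 3.50e-05) and by 3.28 ± 0.65 in WT (adjusted p = 0.0003), from a median of 0.192 to 3.24 CPM in KO and from 0.328 to 3.93 CPM in WT. Dpep2, a dipeptidase that cleaves D4 to E4, rose by 1.75 ± 0.23 in KO (adjusted p = 1.04e-06) and by 2.19 ± 0.27 in WT (adjusted p = 3.39e-07). Ggt5, another transferase that acts on leukotriene C4, fell by 0.66 ± 0.21 in KO (adjusted p = 0.0173), and in WT it fell by 1.04 ± 0.24 (adjusted p = 0.00161) (a gene chosen with its values in view). Of the 11 listed leukotriene enzymes other than the members 10 were tested, with 3 called higher and 1 lower in KO and 3 higher and 2 lower in WT. Of the 4 leukotriene receptors 0 were called in KO and 1 in WT, which was lower. Of the 5 other lipoxygenases 3 were tested, with 1 lower in KO and 2 lower in WT. Alox15, which makes mediators with roles in resolving inflammation, fell by 3.48 ± 0.70 in WT (adjusted p = 0.000377), from 4.88 to 109 CPM in WT ns (median 16.1) to 0.748 to 5.27 CPM in WT LPS (median 3.00). In KO its difference was -0.89 ± 0.56 (adjusted p = 0.26).

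On the prostaglandin side, Ptger3, the EP3 receptor, fell while Ptger4 rose. It was at 3.40 to 10.3 CPM in KO ns and at 0.384 to 1.43 CPM in KO LPS, and at 3.30 to 7.47 CPM in WT ns and 0.238 to 1.16 CPM in WT LPS, without overlap in either genotype. It fell by 2.82 ± 0.30 on the log2 scale in KO (adjusted p = 1.97e-08), and in WT it fell by 3.19 ± 0.35 (adjusted p = 6.95e-08). It was the only one called of the 4 prostanoid receptors tested beside Ptger4, in either genotype. Hpgd, the dehydrogenase that inactivates prostaglandin E2, fell by 2.43 ± 0.34 in KO (adjusted p = 2.87e-06), from a median of 370 to 80.9 CPM. In WT it fell by 1.74 ± 0.39 (adjusted p = 0.000981), from a median of 326 to 74.8 CPM. Of the genes of prostaglandin breakdown and transport 4 of 6 were tested, with 1 called higher and 1 lower in each genotype. Of the 6 listed prostanoid synthases other than the members 5 were tested, with 0 higher and 1 lower in KO and 1 higher and 1 lower in WT.

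Upstream, 12 of 15 listed genes of arachidonate release and re-esterification were tested, with 0 higher and 3 lower in KO and 1 higher and 4 lower in WT. Mgll, the lipase that frees arachidonic acid from an endocannabinoid in brain, fell by 1.83 ± 0.26 in KO (adjusted p = 4.06e-06) and in WT it fell by 2.44 ± 0.31 (adjusted p = 6.97e-07). Its level was 28.2 to 103 CPM in KO ns, 5.29 to 35.0 in KO LPS, 74.6 to 100.3 in WT ns and 7.67 to 24.9 in WT LPS. Faah, a hydrolase of other endocannabinoids, fell by 1.65 ± 0.48 in KO (adjusted p = 0.0105), and in WT it fell by 1.91 ± 0.52 (adjusted p = 0.00601) at very low levels, with no library above 2.25 CPM. As labelled, none of these genes was called in WT.

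**Figure D5:**
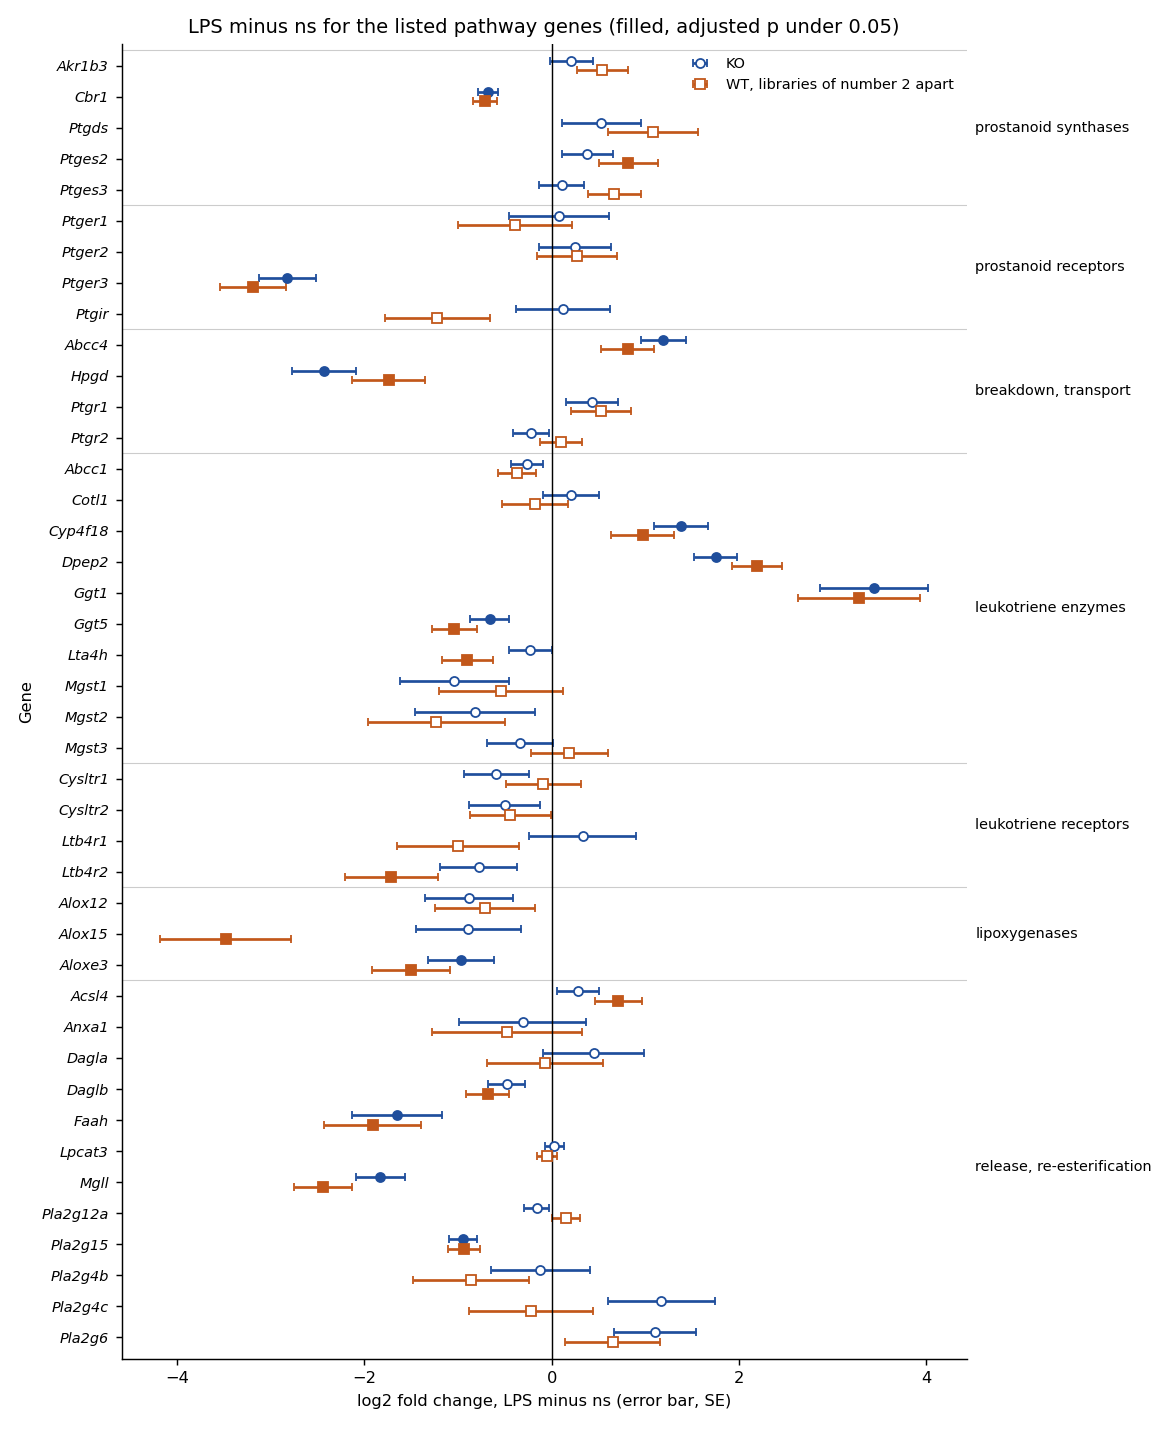
Log2 fold change of LPS minus ns with its SE (horizontal) for the 42 tested pathway genes by list (vertical) in KO (circles) and in WT with number 2 apart (squares), filled where the adjusted p is under 0.05. Ggt1 at 3.44 and 3.28 is the highest called gene and Ptger3 at -2.82 and -3.19 is far to the left in both genotypes.

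Between KO and WT, 0 of the 42 pathway genes were called at ns, at LPS or in the interaction, and 0 of 55 in any comparison of the sex experiment, in which all 55 passed the filter. DESeq2 called 1 pathway gene at ns, Alox15, and 1 in the average over the sexes, Aloxe3.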

How the data were processed

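The members and all lists were chosen with earlier results of these data known. The authors deposited 2 tables of counts per gene, 1 for the sex experiment (18 columns) and 1 for the LPS experiment (33 columns). Of 57 labelled samples 51 have a column, and 6 repeat libraries are not analysed here. Per the submitters' processing notes, FastQC, STAR 2.6.1, featureCounts, Subread and DESeq2 were used with GRCm39, with roles not given in the sources used here. Poly(A) RNA was sequenced on a NovaSeq, per the labels' protocols. Per the file headers, the table of the sex experiment gives each gene's position and a length equal to its whole span, introns included. Of the low counts (1 to 19), 78.0% to 88.8% per library were even in that table and 39.1% to 44.8% in the other, so the tables were counted differently and were fitted separately.

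Each table was tested with edgeR 4.0.16 (R 4.3.3): TMM scaling, filterByExpr on the 4 groups, robust quasi-likelihood F test, and Benjamini-Hochberg adjustment over all genes tested. The SE is the size of the log2 fold change divided by the square root of F. The fit of the LPS experiment had the library set (2 sets, read from the library names) as a covariate. In this fit the WT libraries of number 2 had means of their own and entered no comparison. WT LPS 8 and 9 (chi-square per degree of freedom 1.86, against 8.32 or more in other pairs of that experiment) were summed to 1 sample. Groups come from the labels. The labels of the LPS experiment do not say that libraries came from separate animals, so its p-values measure the spread between these samples, which may be technical. Alternatives were DESeq2 1.42.0, no filter, only the groups compared, the replicate number as a block, other treatments of number 2 and of the pair, single library sets and leaving out libraries. Of the pathway lists, the 6 called genes with the largest fold change per comparison were to be named; all members were. Upper limits for 0 counts are 3 counts and cover counting error only. The steps were tested on simulated counts, drawn independently with the same dispersion for all genes of a table. These counts held no library-set effect, no libraries low in long mRNAs and no shared deviation. The simulation therefore cannot check the p-values against those features. Promoter sequences are from RefSeq (GRCm38.p6); no coordinates were converted between builds.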

Additional observations from a re-analysis of the deposited data

Results flagged for a closer look

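A sample was set apart here where its gap to the nearest other sample was large for the range of its group, by Dixon's test. With normally distributed values, chance meets this rule in about 5% of groups. Over the 10 members, 17 of 80 groups met it, all 17 at the high end. CPM values can be skewed and the members share libraries, so this count cannot be set against the 5%. Male WT 5 accounted for 4, KO LPS 5 for 4, female WT 2 for 3, WT LPS 7 for 3, KO ns 6 for 2 and WT ns 4 for 1.

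In the sex experiment, Ptgs2 was at 219.6 CPM in male WT 5 (13.0 to 17.6 in the rest of its group) and at 95.0 in female WT 2 (7.15 to 16.6). Ptges was at 5.46 CPM in male WT 5 (0.103 to 0.842) and at 2.92 in female WT 2 (0.123 to 0.293). Alox5 was at 219 CPM in male WT 5 (57.7 to 77.3). Alox5ap was at 322 CPM in male WT 5 (155 to 183) and at 263 in female WT 2 (131 to 145). These animals had neutrophil marker sums of 48695 and 28925 CPM.

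In the LPS experiment, KO LPS 5, KO ns 6 and WT LPS 7, all low in long mRNAs, stood apart from their groups. Alox5ap was at 800.3 CPM in KO LPS 5 (229.7 to 424 in the rest), at 851 in KO ns 6 (196 to 299) and at 1200 in WT LPS 7 (241 to 469). Pla2g4a was at 299 CPM in KO LPS 5 (52.3 to 107), at 249.7 in KO ns 6 (48.7 to 92.5) and at 424 in WT LPS 7 (54.4 to 103). Ptgs2 was at 2.52 CPM in KO LPS 5 (0.213 to 1.16) and at 3.87 in WT LPS 7 (0.483 to 0.787). Hpgds was at 889 CPM in KO LPS 5 (360.0 to 595). Ltc4s was at 283 CPM in WT ns 4 (140.5 to 189), the library with the largest total, 168.4 M counts.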

How the results depend on the processing

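Counts here are of genes called over all genes unless members or pathway genes are named. No called direction reversed. In the sex experiment DESeq2 called 24 genes in males, 213 in females, 359 averaged and 153 between female and male WT, against 3, 52, 137 and 23 with edgeR, and 1 pathway gene averaged. Without a filter 96 were called in females. With only the groups compared, 3 were called in females and 11 between female and male WT. Without male WT 5 and female WT 2, 192 were called in females and 309 averaged. Leaving out 1 library gave 3 to 4 in males, 5 to 132 in females, 54 to 279 averaged and 14 to 41 between female and male WT.

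For LPS minus ns in KO (4481 genes), the first set alone gave 7058, the second 756 with 3 members and 6 pathway genes, and leaving out the libraries low in long mRNAs 8765 with 20 pathway genes. In WT (4811), keeping labels gave 0 genes, members and pathway genes, or 36 genes, 0 members and 1 pathway gene with the pair apart; the second set gave 589 with 2 members and 4 pathway genes, the first set 9 members, and leaving out the low libraries 8692 with 9 members. Leaving out 1 library gave 4131 to 5087 genes, 6 to 7 members and 11 to 14 pathway genes in KO, and 3958 to 5611, 5 to 8 (8 without KO ns 6) and 13 to 19 in WT. Pla2g4a in WT was called without WT LPS 8 at 1.16, KO ns 6 at 1.07 or KO LPS 5 at 1.02. Members called in WT were 6 rather than 5 with DESeq2 (Alox5 added at 0.90, adjusted p = 0.048), with number 2 left out of all groups (Alox5 at 0.90, adjusted p = 0.0321) and with WT LPS 8 and 9 apart (Ptgs2 at -1.56, adjusted p = 0.043). The first set alone called 7 in KO, with Pla2g4a and Alox5ap added and Ptges lost.

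For KO minus WT at ns (14 genes), DESeq2 gave 46 with 1 pathway gene, the second set 1, leaving out the low libraries 58 and leaving out WT ns 3 and 8 9. At LPS (15), DESeq2 gave 50 with 1 member, the first set 26, the second 0 and leaving out the low libraries 45. The interaction (0) gave 3 with DESeq2 and 1 with the first set or without the low libraries. Leaving out 1 library gave 11 to 23, 8 to 29 and 0 to 1. The cause of these shifts was not tested.

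The replicate block called 5 genes in males, 85 in females, 13 between female and male WT, 5425 in KO, 5639 in WT and 36 for KO minus WT at LPS, with 6 members in KO and 5 in WT. In the sex experiment same-numbered samples correlated at a mean of 0.00677 over 24 pairs (7 over 0.1). In the LPS experiment they correlated at a mean of 0.293 over 45 pairs (29 over 0.1). The 363 other pairs of the LPS experiment had a mean of -0.00569 (163 over 0.1). Same-numbered libraries of the LPS experiment thus deviated together on average, but not every pair did. The labels do not say what a number shares, and the main fit was left unblocked. Its p-values therefore do not take this shared deviation into account. All 4 libraries of number 2 in the second set were among the 6 low in long mRNAs. Depth limits genes of low counts such as Ptges, which had 0 counts in 4 libraries. The alternatives on long mRNAs, WT ns 3 and 8, and male WT 5 with female WT 2 were chosen after seeing the data.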
